A study of Caenorhabditis elegans with 2 samples.

Results

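Binding of the tagged POU homeodomain protein CEH-18 was described at 7 genes that build cilia or move cargo in them, of 19973 protein-coding genes on the nuclear chromosomes of Caenorhabditis elegans. The genes were taken by name: the transcription factor gene daf-19, the centriole gene hyls-1, the kinesin-II genes klp-11, klp-20 and kap-1, the kinesin gene osm-3 and the dynein gene che-3. No measured value entered their choice, but they were listed with earlier results of the same data known. For each gene, every peak summit was collected from the end of the nearest protein-coding gene lying wholly upstream to the end of the gene's own body, a stretch called its locus here.

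The chromatin came from whole hermaphrodite embryos of strain OP533, genotype unc-119(tm4063) III; wgIs533, at a late stage, 3 h after egg bleaching. Its integrated transgene expresses CEH-18 with GFP and FLAG at its C-terminus, the labels do not name the promoter that drives it, and an antibody against GFP is described, while the antibody field names ceh-18. There was 1 group with 2 biological replicates, 1 library each, and no second condition, so the design gave no contrast to test. The animals were not sorted, so each value averages over all cells of the embryo, and ciliated cells cannot be told apart from others.

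In worms, cilia are carried by sensory neurons, at the tips of their dendrites. DAF-19, the RFX-type transcription factor of C. elegans, switches on ciliary genes through a promoter element called the X-box, and animals without it lack cilia. HYLS-1 is a centriole protein needed to turn a centriole into the base of a cilium. Trains of intraflagellar transport (IFT) particles are carried outward by heterotrimeric kinesin-II, made of the motor subunits KLP-11 and KLP-20 and the accessory subunit KAP-1, together with the homodimeric kinesin OSM-3, and are brought back by the dynein whose heavy chain is CHE-3.

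CEH-18 peaks that passed the authors' irreproducible discovery rate (IDR) threshold lay upstream of daf-19, hyls-1 and klp-11, and a further thresholded peak lay inside klp-11. For klp-20 and osm-3, the authors' list pooled from both replicates held a peak upstream of the gene that was below the threshold. Their signals were 106.9 and 101, where the thresholded list ended at 114.2. That of klp-20 lay inside the overlapping gene F40G9.17, and that of osm-3 was nearer to the 5′ ends of algn-14 and M02B7.2. No summit of any list lay in the kap-1 locus, and only weak summits of replicate 1 lay in that of che-3. The sequences under or beside the strongest peaks are shown first, read 5′ to 3′ in the direction of the gene from the RefSeq copy of WBcel235, the same assembly as ce11. The daf-19 stretch is the 300 bases before the annotated 5′ end (II:10169347-10169646, minus strand), chosen because it holds the thresholded summit and an X-box. The hyls-1 stretch is the whole sequence of 250 bases between hpo-9 and hyls-1 (V:7237131-7237380, plus strand). The others are 151 bases centred on a summit: upstream of klp-11 (IV:8762494-8762644, minus strand), inside klp-11 (IV:8757834-8757984, minus strand) and upstream of klp-20 (III:209028-209178, plus strand). Capitals mark the GA repeat word GAGAGA (written as TCTCTC where it is on the other strand), the GC box GGGCGG, the short octamer word ATGCA, the homeodomain word TAATTA and the X-box.
daf-19 upstream: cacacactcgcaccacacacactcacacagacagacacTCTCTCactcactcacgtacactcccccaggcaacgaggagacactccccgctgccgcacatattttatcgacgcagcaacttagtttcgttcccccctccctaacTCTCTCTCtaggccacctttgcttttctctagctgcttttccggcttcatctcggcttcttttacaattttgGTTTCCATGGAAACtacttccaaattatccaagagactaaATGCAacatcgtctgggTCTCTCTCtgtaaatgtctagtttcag
hyls-1 upstream: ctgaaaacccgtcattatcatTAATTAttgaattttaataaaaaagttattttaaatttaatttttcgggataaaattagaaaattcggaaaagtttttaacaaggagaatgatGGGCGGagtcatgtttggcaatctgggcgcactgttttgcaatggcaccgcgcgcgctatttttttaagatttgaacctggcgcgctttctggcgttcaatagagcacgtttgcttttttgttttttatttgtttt
klp-11 upstream: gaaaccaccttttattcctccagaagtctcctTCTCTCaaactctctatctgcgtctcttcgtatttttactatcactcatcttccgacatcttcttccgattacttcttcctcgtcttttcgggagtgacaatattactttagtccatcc
klp-11 inside: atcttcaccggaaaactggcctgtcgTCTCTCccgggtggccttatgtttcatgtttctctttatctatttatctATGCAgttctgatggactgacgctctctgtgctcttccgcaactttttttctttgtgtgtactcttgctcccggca
klp-20 upstream: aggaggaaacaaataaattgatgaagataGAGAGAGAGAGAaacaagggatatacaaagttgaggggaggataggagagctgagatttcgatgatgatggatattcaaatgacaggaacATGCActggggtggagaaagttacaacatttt

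Of the 7 genes, 3 (42.9%) were called bound, meaning that a thresholded summit lay from 1000 bp upstream to 200 bp downstream of the annotated 5′ end, against 7.20% of all protein-coding genes. Over whole loci the same 3 genes held a thresholded summit, 4 summits in all, against 13.9% of all protein-coding genes. The loci of these genes were longer than most, with a median of 8132 bp against 3833 bp over all genes, and a longer locus has more room for a summit. Loci with a thresholded summit had 13748 bp (daf-19), 8132 bp (klp-11) and 2529 bp (hyls-1). Those without had 4902 bp (kap-1) to 23327 bp (klp-20). Whether length bears on the share was not tested. In the pooled list, which also holds background, 5 of the 7 (71.4%) had a summit in the promoter window, against 35.1% of all genes, and 5 had one in their locus, against 56.0%. These are not the same 5 genes: kap-1 had pooled summits in its window that lay inside the neighbouring gene, and osm-3 had them in its locus and not in its window. With 7 genes listed after results were known, the shares describe these genes and were given no test.

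**Figure D1:**
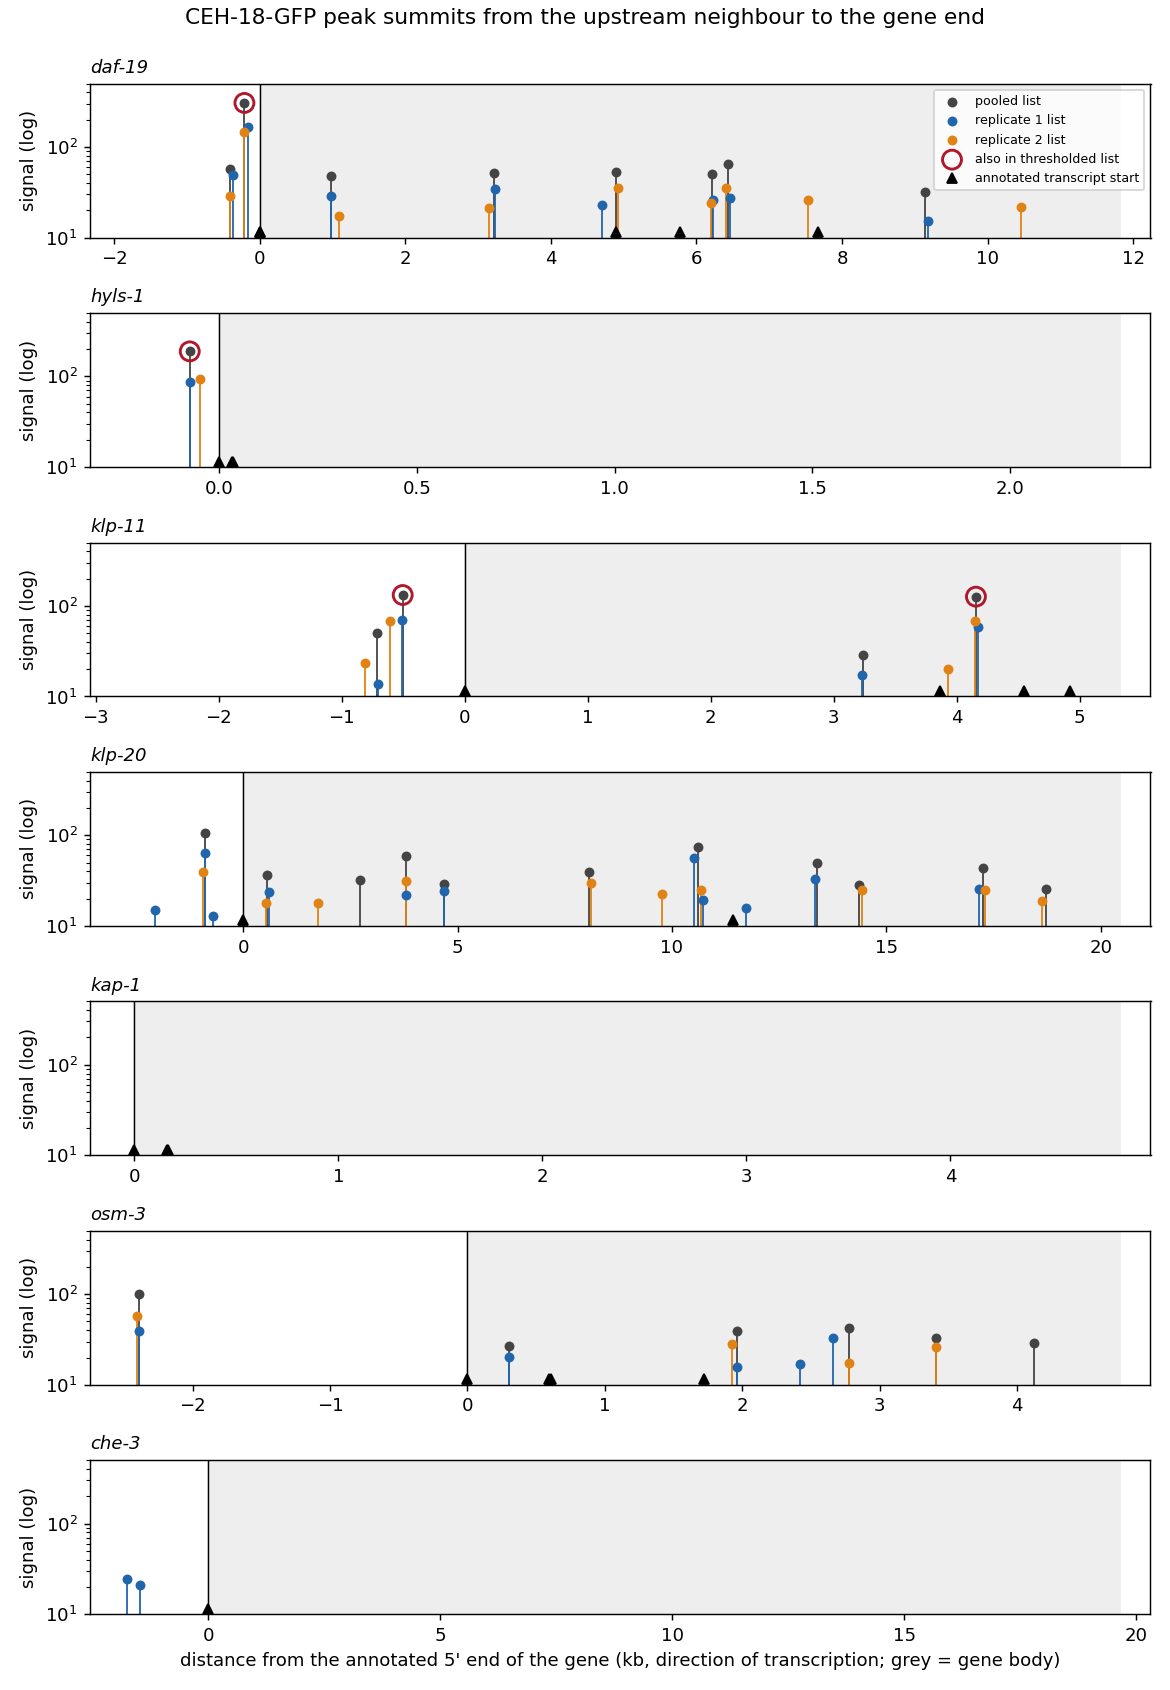
Each panel is 1 gene; the x axis is the distance from its annotated 5′ end in kb (grey is the gene body), the y axis the deposited peak signal on a log scale, points are summits of the pooled list and of each replicate, red circles mark summits in the thresholded list and triangles annotated transcript starts. Circled summits are seen at daf-19 (1), hyls-1 (1) and klp-11 (2), klp-20 has many low summits along its body, and kap-1 has none.

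The signal of a peak is the height that the authors' peak caller gave it, and its scale is unknown. Values are compared within a list, except that the 2 replicate signals of a peak are also given as a ratio. The median signal was 21.2 in the replicate 1 list and 24.4 in that of replicate 2. Over thresholded peaks found in both replicates the median ratio of replicate 1 to replicate 2 was 1.00. The thresholded list held 2575 peaks, all pooled peaks with a signal of at least 114.2, with a median of 171.5. The pooled list held 28466 peaks, replicate 1 had 30000 and replicate 2 had 21337. Read counts were not used here, so the depth behind each peak is unknown and no interval can be given for a signal. The word biological in the labels is all that says how the replicates were grown, so the spread between them may be technical.

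The strongest peak of the set lay before daf-19 (WBGene00000914, II:10157520-10169346, minus strand). It covered II:10169464-10169682, with its summit at 10169559, in intergenic sequence 213 bp upstream of the 5′ end of the longest transcripts. Its pooled signal of 306 ranked 348 and was above the strongest promoter peak of 85.5% of the 1438 bound genes. Replicate 1 gave the peak a height of 167, with a -log10 q of 3.41 and a summit 44 bp nearer to the gene. Replicate 2 gave the peak 146, with a -log10 q of 2.38 and a summit at the pooled base. Both -log10 q values were the same at the weaker hyls-1 peak, so they do not rank these peaks or compare the replicates. The replicate 1 signal was 1.14 times that of replicate 2, inside the range of 0.624 to 1.56 that held the central 90% of thresholded peaks found in both replicates. The nearest other 5′ end, that of gpd-4 (glyceraldehyde-3-phosphate dehydrogenase), was 1709 bp away, and no thresholded or pooled summit lay in the promoter window of gpd-4.

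A second, overlapping peak of the pooled list had its summit 414 bp upstream of daf-19, where the height was 56.5 in the pooled list, 48.8 in replicate 1 and 28.8 in replicate 2. It was the weaker of the pair in every list that held it and was below the threshold. The daf-19 gene is annotated with 5 transcripts: the long ones start at the 5′ end of the gene, and the shorter ones 4894, 5770 and 7673 bp downstream of it. As background, a short product is the one known for switching on ciliary genes, and the long products for a role in neurons without cilia. Which of the shorter annotated transcripts gives that short product was not determined here. Inside the gene the pooled list held 6 further summits, all in introns, with signals of 32.0 to 65.2.

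One of them, with a signal of 53.2, lay 3 bp before the transcript start at 4894 bp. Replicate 2 had a summit 21 bp after that start with a signal of 35.1, and the nearest replicate 1 summit, with a signal of 23.1, was 195 bp before it. The strongest internal summit, at 65.2, lay 659 bp after the transcript start at 5770 bp, with 27.6 in replicate 1 and 35.2 in replicate 2. Nearest to the most downstream transcript start was a summit of replicate 2 alone, 137 bp before it, with a signal of 26.2. No internal daf-19 summit reached the threshold, the highest signal being 65.2 against 306 at the upstream peak.

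The 300 bases before daf-19 held an X-box 71 to 84 bp upstream of the 5′ end, GTTTCCATGGAAAC, which reads the same on both strands. The CEH-18 summit was 135 bp from the middle of this word, and the thresholded interval ended 118 bp upstream of the gene, so the word lay outside it. The peak of replicate 2, which reached past the 5′ end, covered the word, and both peaks of replicate 1 ended 121 bp upstream. The degenerate X-box consensus of 14 bases, searched on both strands from 1000 bp upstream to 200 bp downstream, matched in daf-19, hyls-1 and osm-3, and in 18.1% of all protein-coding promoter windows. The exact word of daf-19 was in 5 of the 19973 windows (0.0250%). The others were those of ift-74, which encodes an IFT particle subunit, gpx-2, Y45F10D.15 and K09E2.1, named after this count was seen. None of these windows held a thresholded summit, where 7.20% of all protein-coding promoter windows did. A pooled summit lay in that of gpx-2 alone, where 35.1% of all windows held one.

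**Figure D2:**
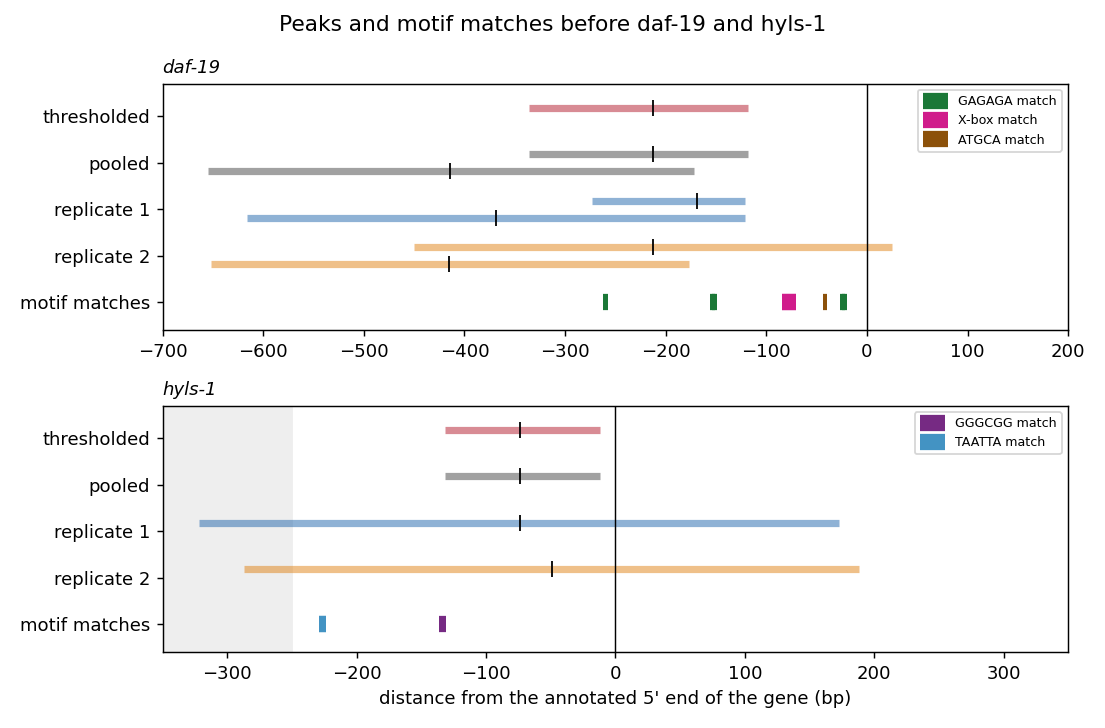
Peak intervals (bars) and summits (black ticks) of the 4 lists before daf-19 and hyls-1, by distance from the annotated 5′ end in bp, with motif matches in the stretches whose sequence is given in the text; grey is the body of hpo-9. The thresholded daf-19 summit lies 213 bp before the gene and the X-box 71 to 84 bp before it, and the hyls-1 summit lies 74 bp before the gene, in the gap of 250 bp.

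Before hyls-1 (WBGene00015466, V:7237381-7239659, plus strand), the thresholded peak covered V:7237249-7237369 with its summit at 7237307, 74 bp upstream of the 5′ end. Its signal of 189 ranked 1077 and was above the strongest promoter peak of 56.5% of bound genes. The height was 86.6 in replicate 1, with the summit at the same base, and 94.4 in replicate 2, with the summit 25 bp farther along. The replicate 1 signal was 0.918 times that of replicate 2, so the replicates were about level. This was the only summit of any list between hpo-9 and the end of hyls-1.

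The gap between the genes is a shared upstream region. hpo-9 (WBGene00015463) runs the other way from the same gap, with its 5′ end 177 bp from the summit, so hpo-9 was called bound by the same peak. The summit was nearer to hyls-1, but a peak in a gap of 250 bp cannot be given to either gene from these lists. The intervals of daf-19 and hyls-1 were narrow, at 219 and 121 bp, while the width of a peak was 484 bp in the median of the pooled list and under that in 25.6% of thresholded peaks. The X-box match of hyls-1 lay 593 to 606 bp upstream, in the body of hpo-9.

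Of the kinesin-II subunits, klp-11 (WBGene00002222, IV:8756735-8762066, minus strand), a motor subunit, held 2 thresholded peaks. The upstream peak, over IV:8762327-8762810, had its summit 503 bp before the 5′ end and a signal of 132, rank 2064, above the promoter peak of 17.5% of bound genes. Replicate 1 had 68.9 and replicate 2 had 67.6, a ratio of 1.02, but the replicate 2 summit was 105 bp from the pooled one, against 3 bp for replicate 1. Over all thresholded peaks the distance from the pooled summit to that of replicate 2 was 10 bp in the median and 68 bp at the 95th percentile. The 5′ end of F20C5.11, an overlapping gene annotated on the same strand, was 573 bp from the summit, so the peak is in the window of both.

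The internal klp-11 peak covered IV:8757667-8758150, with its summit in an intron 4157 bp after the 5′ end and a signal of 126, rank 2217. The summit also lay inside the body of the overlapping F20C5.11 (IV:8755035-8761996). Replicate 1 gave the peak 57.8 and replicate 2 gave it 68.8, a ratio of 0.840. The start of a short annotated transcript lay 295 bp before this summit, and those of the other short ones lay downstream of it. With the strongest 2575 peaks of replicate 1 alone the internal peak was not retained, since it ranked 2619 there, and in replicate 2 it ranked 2005. Both klp-11 peaks were weaker than the median thresholded peak.

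For klp-20 (WBGene00002230, III:209992-230450, plus strand), the partner motor subunit, the strongest pooled peak lay 889 bp upstream over III:208861-209344, with a signal of 106.9, rank 2827, against the 114.2 at which the thresholded list ended. The summit lay inside the body of F40G9.17 (WBGene00185078, III:194460-210063), a gene on the same strand whose end overlaps the start of klp-20. Replicate 1 had 64.6 there, rank 2196, and replicate 2 had 39.3, rank 4754. The replicate 1 signal was 1.64 times that of replicate 2, the largest such ratio among the upstream peaks of these genes that led their locus. With the strongest 2575 peaks of replicate 1 alone klp-20 was called bound, and with those of replicate 2 alone it was not.

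Another 10 pooled summits lay along the 20459 bp body of klp-20, with signals of 25.3 to 74.5. The strongest was 10600 bp after the 5′ end, 824 bp before the start of a shorter transcript, and had 56.9 in replicate 1 against 24.7 in replicate 2. In a locus of 23327 bp the pooled list held 11 summits. Of the 1244 genes with a locus of 15 to 30 kb, 19.3% held at least 11 pooled summits and the median was 6, so klp-20 was in the upper part of that range. No thresholded summit lay in its locus, as in 66.9% of those genes.

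kap-1 (WBGene00002182, III:7338835-7343667, plus strand), for the accessory subunit, had no summit in its 4902 bp locus in the thresholded, pooled or replicate lists. Among the 3367 genes with a locus of 4 to 6 kb, 29.0% likewise held no summit in any list. A gap of 69 bp separates it from gsp-2, which encodes a catalytic subunit of protein phosphatase 1 and runs the same way. The 2 pooled summits in the kap-1 promoter window, 117 and 349 bp upstream, lay inside gsp-2 and had signals of 34.5 and 45.5. The interval of the weaker one reached 125 bp into kap-1, and that of a replicate 2 peak, whose summit was 204 bp upstream, reached 34 bp into it. Before gsp-2 itself the stronger of 2 pooled summits had a signal of 90.0, below the threshold, 234 bp upstream.

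osm-3 (WBGene00003884, IV:3796300-3801052, minus strand), for the homodimeric kinesin, had its strongest pooled peak 2392 bp upstream, over IV:3803202-3803685, with a signal of 101, rank 3089. Replicate 1 had 39.0, rank 5039, and replicate 2 had 58.1, rank 2638, a ratio of 0.671. The summit was 18 bp before the 5′ end of algn-14, which overlaps the start of osm-3 on the same strand, and 137 bp before that of M02B7.2 on the other strand. Both of those genes were thus much nearer to the peak than osm-3 was. Inside osm-3 the pooled list held 5 summits, with signals of 27.0 to 42.3, and none lay in its promoter window.

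The longest gene body but that of klp-20 belonged to che-3 (WBGene00000485, I:8062007-8081671, minus strand), for the heavy chain of the ciliary dynein. Its locus of 21569 bp held no thresholded and no pooled summit. Of the 1244 genes with a locus of 15 to 30 kb, 124 (9.97%) held no pooled summit. Replicate 1 listed 2 summits there, 1486 and 1749 bp upstream, with signals of 21.2 and 24.3, near its median of 21.2, and replicate 2 listed none. They lay 419 and 156 bp before rme-8, the gene on the other side of the gap.

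In each of the 5 loci with a pooled summit, the strongest one lay upstream of the gene's 5′ end. The same held for 60.1% of the 11189 protein-coding genes with a pooled summit in their locus. Of all 30 pooled summits over the 7 loci, 7 lay upstream, 15 in introns, 6 in coding exons, 1 in a 5′ UTR and 1 in a 3′ UTR. No summit of any list in these loci was within 200 bp of an annotated non-coding RNA gene.

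**Figure D3:**
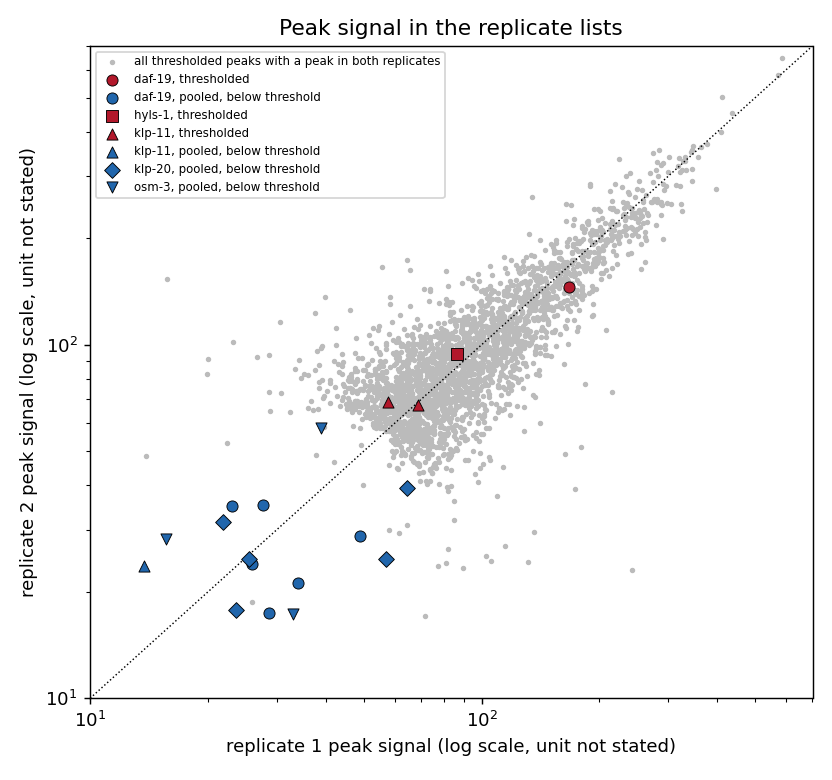
Signal in replicate 1 (x axis) against replicate 2 (y axis), both on log scales with an unstated unit, for all thresholded peaks found in both (grey) and for the pooled peaks of these genes found in both (red, thresholded; blue, below the threshold); the dotted line marks equal signal. The thresholded peaks of daf-19, hyls-1 and klp-11 lie near the line, at ratios of 0.840 to 1.14, while those of klp-20 and osm-3 upstream of the gene lie to either side at 1.64 and 0.671.

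The replicates each listed the 4 thresholded peaks, and both listed 2565 of all 2575 thresholded peaks. Of the 26 pooled summits below the threshold, 15 were overlapped by at least 1 bp by a peak of each replicate, 9 by a peak of 1 replicate and 2 by none. The pooled list draws on both replicates, so this overlap is a description and not independent evidence. The same split over all pooled peaks is not given here. Among the 15 the ratio of replicate 1 to replicate 2 spread more widely than among the 4 thresholded peaks, running from 0.553 at an internal osm-3 summit to 2.30 at the strongest internal klp-20 summit. The thresholded list came from an IDR step on these replicates, and 4 values are fewer than 15. The wider spread is therefore a description and was not tested.

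**Figure D4:**
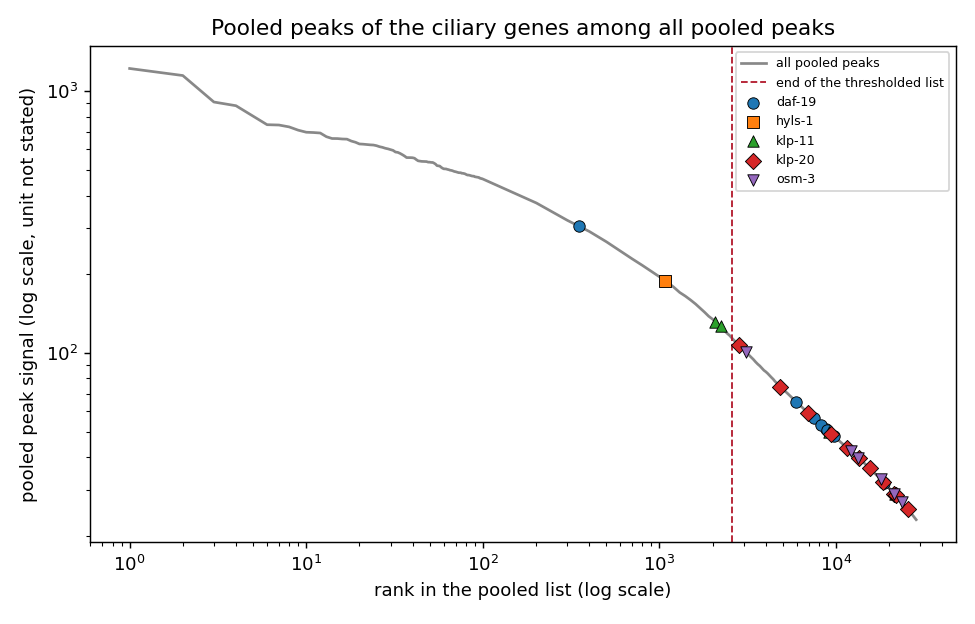
Pooled signal (y axis, log scale, unit not stated) against rank in the pooled list (x axis, log scale) for all 28466 pooled peaks (line) and for those of these genes (symbols); the dashed line is the end of the thresholded list. daf-19 stands at rank 348 and hyls-1 at 1077, and the klp-11 peaks are close to the end of the thresholded list. The leading peaks of klp-20 and osm-3 are past it, at ranks 2827 and 3089.

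GAGAGA lay no more than 75 bp from the summit in 3 of the 4 thresholded peaks, those of daf-19 and klp-11, against 45.2% of all thresholded windows and 12.8% of windows of the same length ending at a protein-coding 5′ end. It was searched on both strands, like each word here, and in every one of these 3 windows it read TCTCTC along the gene. In the klp-20 window below the threshold it formed a run of GA repeats that holds 4 overlapping matches. The GC box GGGCGG was present before hyls-1 alone (10.4% of thresholded windows, 4.79% of promoter windows), 57 to 62 bp from the summit.

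The POU octamer ATGCAAAT was in none of the 4 windows, against 0.854% of all thresholded windows and 1.54% of promoter windows. The shorter word ATGCA was in 1, inside klp-11, where it began at the summit base (20.8% of thresholded windows, 19.6% of promoter windows). TAATTA, the E-box CANNTG and the X-box were in none of the 4 windows, against 1.51%, 51.7% and 1.17% of all thresholded windows and 9.41%, 41.3% and 2.38% of promoter windows. The GC content was 55.0% at daf-19, 44.4% at hyls-1 and 41.1% and 46.4% at klp-11, against medians of 47.7% over thresholded windows and 32.5% over promoter windows. A match says only that the letters are there.

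Other genes of the cilium were bound about as often as genes in general: 4 of 51 (7.84%), against 7.20%. None of 14 IFT-B genes and none of 10 BBSome and ARL genes was bound, nor was any of 3 genes for cilium kinases and the dynein light intermediate chain. With 7.20% of all genes bound, lists this short can hold none, so these counts describe the lists only. The 4 bound genes were ift-43 (1 of 6 IFT-A genes, signal 130), tmem-107 (1 of 13 transition zone genes, signal 202), and the centriole assembly genes sas-4 (signal 172) and sas-6 (signal 126), of 5 listed. Counting whole loci, 6 of the 51 (11.8%) held a thresholded summit, against 13.9%, and the median pooled count of the 51 was 1, the same as over all genes. Of these, dyf-6, bbs-5, bbs-8 and nphp-4 held theirs outside the promoter window only. That of bbs-8 was 272 bp after its 5′ end, with a signal of 125.

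At 3 of the 4 genes bound in the promoter window the 5′ end of another gene was nearer to the summit. The ift-43 summit was 3 bp from the 5′ end of mdt-26, a Mediator subunit gene, and 398 bp from that of ift-43. That of sas-4 was 20 bp from F10E9.11 and that of sas-6 was 33 bp from Y45F10D.7. The tmem-107 summit was 52 bp from its own gene and 405 bp from the ribosomal protein gene rps-26. At daf-19, hyls-1 and klp-11 the upstream summit was nearest to the gene itself, at 213, 74 and 503 bp. The next 5′ end was 1709, 177 and 573 bp away. No such share over all bound genes is given here, so this is not read as a trait of the set. Among 17 other kinesin and dynein heavy chain genes, 2 (11.8%) were bound: klp-13, with a signal of 336, and the spindle kinesin gene klp-18, with 165, whose summit was nearer to cogc-2 (86 bp) than to klp-18 (545 bp).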

How the data were processed

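Peak lists from chromatin immunoprecipitation of CEH-18-GFP in late embryos, 2 replicates in 1 group, were analysed. Per the deposited file notes, peaks and background were listed per replicate and over both replicates together, from ce11 alignments of immunoprecipitated and control reads, and an IDR step gave the thresholded list. Aligner and peak caller: not given in the sources used here. Per peak, the signal (peak height, scale unknown) and the -log10 q are as the authors deposited them. Other values used were the summit offsets.

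A summit is column 2 plus column 10 plus 1, and coordinates are 1-based. Genes are those of Ensembl release 115 on WBcel235, the build of the ce11 lists, and sequence is RefSeq's of the same assembly. All 24 annotated start codons of the 7 genes read ATG in it. A replicate peak was matched to a pooled peak by an overlap of at least 1 bp, taking the nearest summit. Signals, counts and shares were described without tests. The members and lists were chosen with earlier results of these data known. Named genes are the members, their neighbours, genes with a nearer 5′ end and the bound genes of each list. Some further genes of the lists were named after their values were seen. The ce10 lists were not used here. The counting was checked against a direct count at 200 annotated genes with simulated summits. Python 3.11.15, numpy 2.4.6, pandas 2.3.3 and matplotlib 3.10.9 were used.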

Additional observations from a re-analysis of the deposited data

How the results depend on the processing

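The count of 3 bound genes became 2 with a shorter window, 500 bp before to 100 bp after the 5′ end, which left out klp-11 by 3 bp, and 2 with the 1287 thresholded peaks of highest signal. It was 3 with 2000 bp upstream, with every transcript start and by the nearest 5′ end. With the strongest peaks of 1 replicate alone it ran from 3 to 4, klp-20 being added by replicate 1. The 4 thresholded summits became 2 with the stronger 1287 peaks and were 4 after merging summits within 150 bp and with neighbours of any biotype. With replicate 2 alone they lay in the same genes, and with replicate 1 alone they were also 4, but the internal klp-11 summit was lost and a klp-20 summit was gained. Genes with a summit in their locus became 2 with the stronger peaks, which lost klp-11, and ran from 3 to 4 over the replicates. Over all protein-coding genes the share with such a summit went from 13.9% to 7.79% with the stronger peaks. The share of all protein-coding genes called bound, 7.20%, was 5.50% with the shorter window and 10.01% with the longer one. By the nearest 5′ end it was 10.4%, and with the stronger peaks it was 3.78%. A count of bound genes that rose or fell with these settings thus moved in the same direction as the share over all genes. The 4 other ciliary genes became 3 with the shorter window, 6 with the longer one and 2 with the stronger peaks. Their count ran from 4 to 4 over the replicates, but replicate 1 alone lost sas-6 and gained zyg-1. By the nearest 5′ end the 4 were bbs-8, dyf-5, tmem-107 and tmem-231, of which only tmem-107 was among the original 4. The count of 2 other motor genes, whose alternatives were chosen after seeing the data, became 1 with the shorter window, 4 with the longer one, 6 by the nearest 5′ end and 1 with the stronger peaks. Within 50 bp of the summit, GGGCGG was in 0 member windows in place of 1. daf-19 and hyls-1 were bound under each of the 7 alternatives. No paired analysis was possible because there was 1 group. Read depth is unknown, so a locus without a peak is one without a listed peak.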

Other observations

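Several kinesin genes outside the set had a thresholded summit in their locus but outside the promoter window, and those named here were picked after their values were seen. klp-6, a kinesin-3 gene known from the cilia of male sensory neurons, held 2 thresholded summits 533 and 771 bp after its 5′ end, with signals of 378 and 369, the first of them with no replicate 2 peak matched to it. unc-116, which encodes the heavy chain of conventional kinesin, held a thresholded summit 1462 bp upstream with a signal of 269, and had 148 in replicate 1 and 126 in replicate 2. The strongest such summit had a signal of 199.6 at klp-3, 175.9 at klp-12, 140.6 at unc-104, 137.9 at klp-7 and 131.4 at vab-8. Each of these but that of vab-8 was above the 131.7 of the strongest peak at klp-11. Counting whole loci, 9 of the 17 other kinesin and dynein heavy chain genes (52.9%) held a thresholded summit, against 13.9% of all protein-coding genes, but their loci had a median of 8789 bp against 3833 bp.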
